A study of Homo sapiens with 8 samples.

Results

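Long noncoding RNAs named LINC plus a number, or named for a gene with the ending AS plus a digit, were followed here through TrxR1 knockout and glucose deprivation in a glioblastoma cell line. LINC symbols go to long intergenic RNAs that lie between protein-coding genes, and AS symbols to transcripts read from the opposite strand of the gene they are named for. The RNAs were chosen by their symbols and by their level, a mean of at least 0 on the deposited log2 CPM scale (CPM is a gene's read count scaled to the size of its library) over the 8 libraries. Of the 13730 genes of the table, 450 had such a symbol and 375 of these reached the level, 124 LINC RNAs and 251 antisense RNAs. The 75 others, 27 LINC and 48 antisense, were below it. Nearest above the threshold were LINC00324 (mean log2 CPM 0.00077), PNISR-AS1 (0.0064) and LINC00184 (0.015), and nearest below were LINC00652 (-0.012), IRF1-AS1 (-0.029) and LINC01590 (-0.031). Since the mean spans all 4 groups, 57 of the 375 RNAs were under the threshold in at least 1 group mean, and 66 of the 75 RNAs left out were at or above it in at least 1.

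The study used LN229-TAZ(4SA) cells, a human glioblastoma line with TAZ(4SA), a construct, in its name, and asked how loss of thioredoxin reductase 1 (TrxR1, gene TXNRD1) and lack of glucose act together on tumor cells. The 4 groups were EV control cells in regular medium, KO cells (TrxR1 knockout) in regular medium, EV cells without glucose and KO cells without glucose, with 2 libraries each, called a and b as names only. All cells carried the TAZ(4SA) name and were grown in DMEM with serum, and the labels give neither the number of knockout clones nor the length of the deprivation. The columns taken as glucose-deprived end in GlcN, which the labels do not explain. Nothing in the labels says that the libraries of a group came from separate cultures, so each p-value rests on the spread within pairs of libraries, and that spread may be technical.

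Long noncoding RNAs are transcribed by RNA polymerase II, spliced and often polyadenylated, but carry no long open reading frame. Many are kept at low levels by the nuclear RNA exosome, which degrades transcripts from promoters firing in both directions. An antisense RNA may share exons, an intron or only a promoter region with its sense gene, and a library that does not record the strand, as here, cannot assign reads from shared bases to the one or the other.

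Promoters of 4 named RNAs are shown because members of this group are defined by position and strand rather than by a protein. Of the 375 RNAs, 290 had a promoter in the RefSeq table (GRCh38.p14), the 250 bases before and 50 bases after the start. The 4 below belong to the 2 RNAs that rose most without glucose in EV cells, LINC01583 (chr15:82088344-82088643, plus strand) and SLCO4A1-AS1 (chr20:62666572-62666871, minus strand), LINC02709 (chr11:9759484-9759783, minus strand), which rose less in KO cells, and LINC02915 (chr15:39250419-39250718, plus strand), which fell most in EV cells. Capitals mark matches to the antioxidant response element letters, of which LINC01583 has none. LINC02475 and LINC01119, which moved more in EV cells than LINC02709, have none either and are not printed. The 4 printed promoters thus do not show how common a match is.
LINC01583: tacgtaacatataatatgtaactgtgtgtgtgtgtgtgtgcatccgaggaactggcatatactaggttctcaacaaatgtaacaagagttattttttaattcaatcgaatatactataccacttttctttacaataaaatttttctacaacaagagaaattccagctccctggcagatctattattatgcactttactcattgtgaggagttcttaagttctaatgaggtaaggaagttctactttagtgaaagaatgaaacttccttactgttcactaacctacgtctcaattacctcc
SLCO4A1-AS1: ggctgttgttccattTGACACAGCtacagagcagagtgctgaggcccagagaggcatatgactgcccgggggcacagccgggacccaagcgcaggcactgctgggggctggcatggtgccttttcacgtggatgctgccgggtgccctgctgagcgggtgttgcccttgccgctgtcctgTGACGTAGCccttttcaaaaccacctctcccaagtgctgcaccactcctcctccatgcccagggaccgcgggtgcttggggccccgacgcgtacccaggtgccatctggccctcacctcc
LINC02709: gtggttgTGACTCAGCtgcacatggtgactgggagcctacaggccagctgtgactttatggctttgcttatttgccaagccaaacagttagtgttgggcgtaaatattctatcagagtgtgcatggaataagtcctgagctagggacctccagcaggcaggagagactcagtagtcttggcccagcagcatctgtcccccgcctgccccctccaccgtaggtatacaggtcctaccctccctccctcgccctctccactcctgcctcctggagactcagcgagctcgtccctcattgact
LINC02915: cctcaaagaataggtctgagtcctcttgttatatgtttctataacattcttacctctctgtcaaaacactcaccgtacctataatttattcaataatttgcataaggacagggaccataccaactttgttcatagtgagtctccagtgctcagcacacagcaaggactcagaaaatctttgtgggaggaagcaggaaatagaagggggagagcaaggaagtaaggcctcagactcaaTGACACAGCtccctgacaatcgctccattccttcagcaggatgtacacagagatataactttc

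Each promoter was searched on both strands for TGACNNNGC (the antioxidant response element, bound by NRF2), TGATGNAA (the composite element of ATF4) and the heat shock element (3 alternating GAA and TTC blocks). The antioxidant response element shares its first letters with the AP-1 site, so matches to the 2 motifs can overlap, and AP-1 itself was not searched. TGACNNNGC was found in 58 of the 290 promoters (20%), beside 3702 of all 27305 promoters of the table (13.6%) and 1591 of the 10461 promoters of tested genes (15.2%). SLCO4A1-AS1 held 2 matches, starting 235 and 70 bases before the RefSeq start, LINC02709 held 1 starting 243 bases before it and LINC02915 1 starting 13 bases before it. The GENCODE span of SLCO4A1-AS1 given below starts further upstream, so its second match lies inside that span. TGATGNAA was in 2 of the 290 promoters (0.69%), beside 3.67% of all promoters and 1.67% of those of tested genes, and the heat shock element in 1 (0.345%), beside 0.487% and 0.315%. Of the 32 promoters of RNAs that rose at least 2-fold without glucose in EV cells, 10 held TGACNNNGC, and of the 20 of RNAs that fell as much, 2 did. Both matches to TGATGNAA were in the 32 promoters of the first kind (6.25%), and none was in the 20 of the second. A match describes letters and is not a bound site. The rise of SLCO4A1-AS1 and the fall of LINC02915 stand beside matches to the same motif.

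The libraries held 70083018 to 107229069 reads in the table, and the 375 RNAs were thinly covered in all of them. Their median level was 3.21 CPM, beside 29.5 CPM over the 13057 tested genes. Of the 375, 61 had a mean of 10 CPM or more, 3 of 100 CPM or more, and 115 were under 2 CPM, although the lowest read number of any of them in any library was still 24. The standard error of a log2 difference was wider, with a median of 0.115 against 0.0547 over all tested genes. As a check of the labels, TXNRD1 stood at 263 and 261 CPM in EV and 245 and 249 CPM in KO cells in regular medium, and at 509 and 493 against 370.4 and 351 CPM without glucose. TXNRD1 mRNA was thus not lower in the KO libraries of regular medium beyond the threshold (adjusted p = 0.19, limma), and a gene's total mRNA does not show whether it was edited, so KO and EV stand for the labels throughout. TXNIP, which glucose induces, fell in the columns taken as glucose-deprived (86.3 to 10.5 CPM in EV and 79.6 to 8.45 CPM in KO cells). Of the glial and glioma markers 9 of 10 were expressed above the threshold, among them VIM, CD44 and NES, while GFAP was at 0.755 CPM in EV cells in regular medium and 1.26 CPM without glucose, as group means. No endothelial marker (0 of 3) and 1 of 4 leukocyte markers, CD68, was among the tested genes. Of 3 neuron markers 2 were tested: SYT1 rose without glucose in EV cells, from 14.8 and 16.3 to 51 and 49.2 CPM, and SNAP25 changed by -0.36 (adjusted p = 0.01). Their part in the results was not tested.

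The 375 RNAs together took 0.246% to 0.279% of the reads. Their share was 0.258% in both EV libraries and 0.248% and 0.246% in the KO libraries of regular medium. Without glucose it was 0.275% and 0.279% in EV and 0.257% and 0.261% in KO cells. The EV libraries without glucose were the highest and the KO libraries of regular medium the lowest, and the groups did not overlap except that KO cells without glucose lay around the level of EV cells in regular medium. Antisense RNAs made up 0.156% to 0.172% and LINC RNAs 0.0899% to 0.107% of the reads. The 3 most abundant RNAs, FGD5-AS1, PAX8-AS1 and LINC00673, held 14.5% of the summed CPM, and the first 50 held 55.1%.

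**Figure D1:**
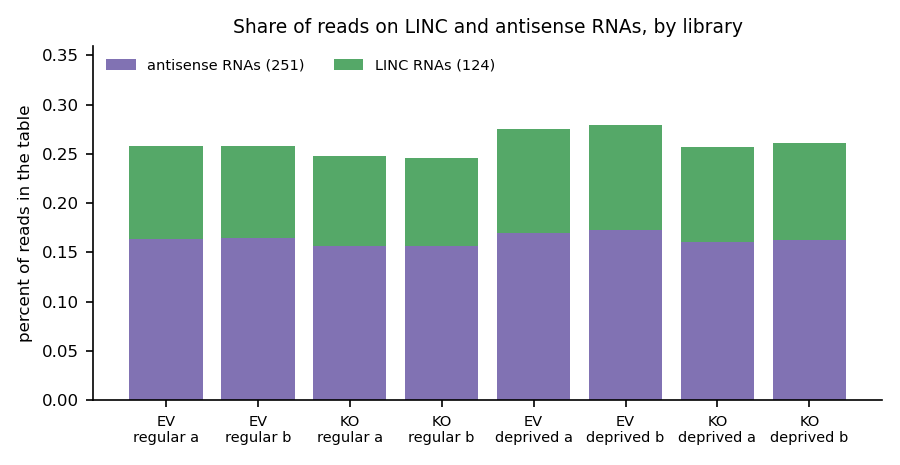
Percent of the reads of each library (y axis) that fell on the 251 antisense RNAs (violet) and the 124 LINC RNAs (green), stacked, for the 8 libraries (x axis). The EV libraries without glucose reach 0.275% and 0.279%, and the KO libraries of regular medium are lowest at 0.246% and 0.248%.

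Levels of different genes were compared per kilobase of annotated exon (CPM per kb, GENCODE release 29 on GRCh38), which 357 of the 375 RNAs had. The median was 1.34 CPM per kb for LINC and 1.29 for antisense RNAs, beside 6.35 for 12025 protein-coding genes tested. The highest was LINC00674 at 48.7 CPM per kb, at chr17:68101908-68115518, which GENCODE lists as a transcribed pseudogene. Also among the highest were FGD5-AS1 (29.6, at chr3:14920347-14948424), PITPNA-AS1 (17.3), LINC02067 (16.7), SLCO4A1-AS1 (15.9), SERTAD4-AS1 (13.3) and LINC01518 (8.63). The names do not guarantee a noncoding, separate transcript. GENCODE types 183 of the 357 as antisense, 111 as lincRNA and 42 as processed transcript, but 11 as transcribed pseudogenes and 3 as protein coding, KRT10-AS1, KCNJ5-AS1 and LINC02693, under other names there. Exon bases were shared with a gene on the other strand in 199 of 242 antisense RNAs and 31 of 115 LINC RNAs, and 112 RNAs were clear of annotated exons on both strands. In PITPNA-AS1 69.9% of exon bases lie opposite other exons, so its level per kilobase cannot be told apart from that of PITPNA, which encodes a phosphatidylinositol transfer protein. Reads of parent copies can also be counted in LINC00674 and the other transcribed pseudogenes, so their levels are uncertain.

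Genes were called at an adjusted p under 0.05, from limma fitted over all tested genes with Benjamini-Hochberg adjustment. All log2 differences below are on the deposited log2 CPM scale. RNAs named for the size of a change between 2 groups had to have no overlap between their libraries, so that trait only describes them. Over all tested genes 55.4% and 61.1% had no overlap for KO against EV in regular medium and without glucose. For deprivation the shares were 90.5% in EV and 83.6% in KO cells. The comparisons share libraries: each group of 2 libraries enters 2 comparisons and the interaction, so their values are given side by side and are not independent of each other, except that the deprivation effects in EV and in KO cells have no library in common, nor do the KO against EV differences in the 2 media.

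Glucose deprivation moved most of these RNAs, and more of them up than down. In bulk RNA fewer cells with a transcript and less of it per cell cannot be told apart. In EV cells 161 of the 375 rose and 96 fell, that is 42.9% and 25.6%, where 37.5% and 38.7% of all tested genes rose and fell. The median log2 difference was 0.13, beside -0.011 over all tested genes. In KO cells 150 rose and 104 fell (40% and 27.7%, beside 36.5% and 36.8% of all tested genes), with a median of 0.10 against -0.0015. LINC RNAs counted 58 up and 34 down of 124 in EV cells, and antisense RNAs 103 up and 62 down of 251. Of the RNAs called higher in EV cells 136 (84.5%) were also called higher in KO cells, which is 90.7% of the latter. Called lower in both were 83 (86.5% and 79.8%). This overlap was not taken over all tested genes, of which 76.2% and 73.3% were called in EV and KO cells. It does not show a trait particular to these RNAs. Low level went with the balance of rises and falls among other genes too: of the tested genes under 10 CPM 1355 rose and 990 fell in EV cells, and of those at 10 CPM or more 3547 rose and 4063 fell. Among the 375, 135 rose and 74 fell under 10 CPM, and 26 rose and 22 fell at 10 CPM or more. The part of expression level in the balance was not tested. Of the 112 RNAs clear of other exons, 51 rose and 25 fell in EV cells, and 52 and 25 in KO cells.

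**Figure D2:**
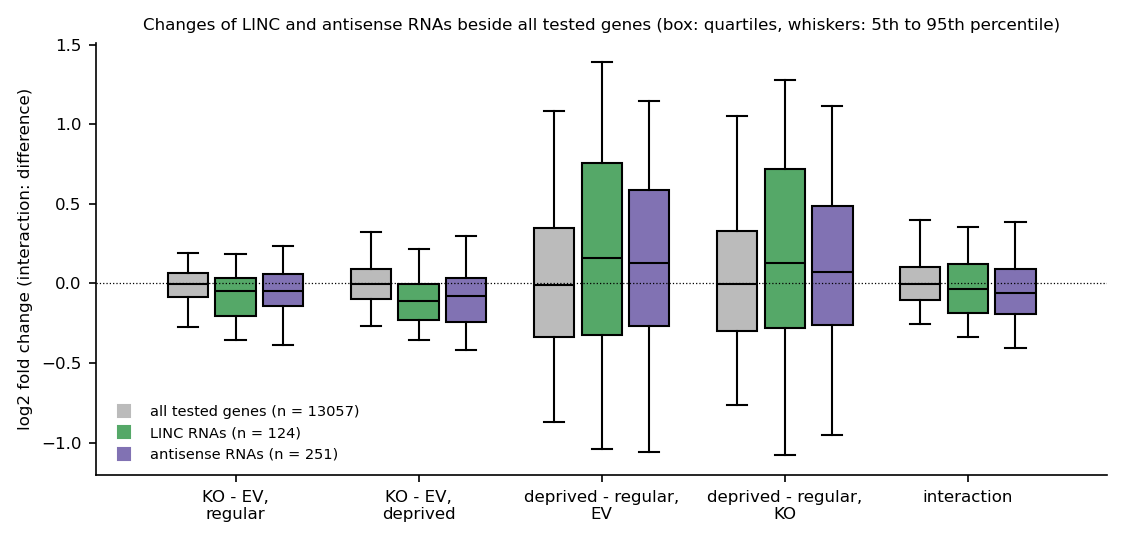
Log2 fold changes (y axis) in the 5 comparisons (x axis) for all 13057 tested genes (grey), the 124 LINC RNAs (green) and the 251 antisense RNAs (violet), with boxes at the quartiles, a line at the median and whiskers from the 5th to the 95th percentile. Under deprivation the medians of both kinds lie above 0, and for KO against EV without glucose they lie below 0, at -0.11 for LINC and -0.079 for antisense RNAs.

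LINC01583, an intergenic RNA at chr15:82088594-82097694 whose nearest protein-coding gene, EFL1, lies 32536 bases away, rose most in EV cells. It stood at 1.06 and 1.2 CPM in EV and 1.13 and 1.14 CPM in KO cells in regular medium, and at 17.4 and 16.6 CPM in EV and 9.67 and 10.5 CPM in KO cells without glucose. The 4 deprived libraries were all far above the 4 regular ones, and the EV pair was above the KO pair. The log2 rise was 3.88 (SE 0.10, adjusted p = 2.0e-10) in EV and 3.12 (SE 0.10, adjusted p = 9.9e-10) in KO cells. EFL1, a GTPase of ribosome maturation, rose by 0.72 and 0.61 on the same scale.

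SLCO4A1-AS1 lies at chr20:62663019-62666724, opposite SLCO4A1, an organic anion transporter, and shares 22.6% of its exon bases with it. Its level was 3.87 and 4.2 CPM in EV and 3.9 and 3.11 CPM in KO cells in regular medium, against 52.2 and 46.7 CPM in EV and 41 and 40.6 CPM in KO cells without glucose. The deprived libraries stood clear of the regular ones in both cell types. The log2 rise was 3.61 (SE 0.10, adjusted p = 3.7e-10) in EV and 3.54 (SE 0.10, adjusted p = 4.6e-10) in KO cells. SLCO4A1 rose by 1.93 and 1.94, less than its antisense RNA, and the RNA went from 14.5 and 15% of the CPM of SLCO4A1 in the EV libraries of regular medium to 48.2 and 46.8% without glucose.

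SLC7A11-AS1, at chr4:138057464-138178177, runs opposite SLC7A11, the importer of cystine in exchange for glutamate. It was at 0.315 and 0.313 CPM in EV and 1.82 and 1.41 CPM in KO cells in regular medium. Without glucose it was at 3.43 and 3.96 CPM in EV and 4.11 and 4.43 CPM in KO cells. Its EV libraries in regular medium were the lowest of all and no group overlapped another. The log2 rise under deprivation was 3.46 (SE 0.15, adjusted p = 1.1e-08) in EV and 1.40 (SE 0.15, adjusted p = 1.1e-05) in KO cells, and the log2 difference between KO and EV in regular medium was 2.27 (SE 0.15, adjusted p = 1.6e-05). On a log2(CPM + 1) scale, which shrinks differences of low levels, these were 1.83 for the rise in EV cells and 0.99 for KO against EV. SLC7A11 itself went from 48.2 and 49.3 CPM to 351 and 364 CPM in EV and from 179.8 and 194 to 509.5 and 503 CPM in KO cells, log2 rises of 2.87 and 1.44. The antisense RNA stayed between 0.635% and 1.09% of the CPM of SLC7A11 in all 8 libraries, and 14% of its exon bases lie opposite SLC7A11 exons, so reads of the 2 genes cannot be told apart there.

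LINC01239, LINC02475 and RHOQ-AS1 also rose from low levels. In regular medium LINC01239 and RHOQ-AS1 were below the threshold of the choice in both cell types. LINC02475 was below it there in KO cells and SLC7A11-AS1 in EV cells. These RNAs reached the mean level through the groups where they were high, so the size of their rises is not independent of the choice. LINC01239, at chr9:22646200-22824213, went from 0.917 and 0.665 to 6.56 and 6.01 CPM in EV and from 0.627 and 0.684 to 6.45 and 5.37 CPM in KO cells, with log2 rises of 2.97 (SE 0.16, adjusted p = 5.5e-08) and 3.12. LINC02475, at chr4:44016861-44022063, went from 0.944 and 1.01 to 5.85 and 5.58 CPM in EV and from 0.554 and 0.764 to 4.71 and 4.69 CPM in KO cells, with log2 rises of 2.52 (SE 0.15, adjusted p = 9.8e-08) and 2.81. Neither shares exon bases with a gene on the other strand, and in neither did a deprived library overlap a regular one. RHOQ-AS1, named for a small GTPase of insulin-stimulated glucose uptake, overlaps the gene RHOQ without sharing exons. It went from 0.682 and 0.646 to 4.04 and 3.57 CPM in EV and from 0.699 and 0.582 to 3.07 and 3.25 CPM in KO cells. Its log2 rises of 2.48 (SE 0.15, adjusted p = 9.2e-08) and 2.27 stood beside 1.04 and 0.93 for RHOQ. In EV cells 42 called RNAs rose at least 2-fold and 27 fell as much (11.2% and 7.2% of the 375, beside 6% and 3.48% of all tested genes). In KO cells 35 rose and 20 fell as much (9.33% and 5.33%, beside 5.65% and 2.15%).

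**Figure D3:**
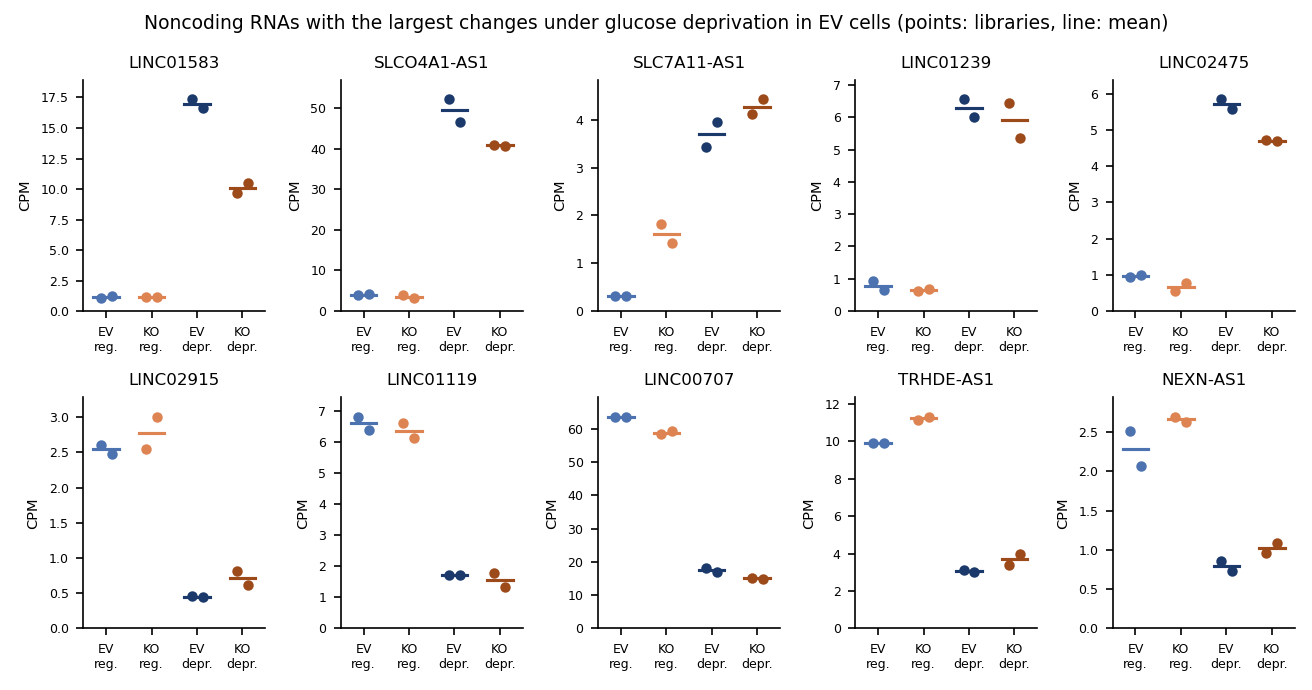
CPM (y axis, linear from 0) in each library (points) and the group mean (line) for the 5 RNAs with the largest rise (upper row) and the 5 with the largest fall (lower row) under deprivation in EV cells among those with at least 2 CPM in the higher group. In the upper row both deprived groups lie above both regular groups, and in the lower row below them.

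The falls were smaller than the largest rises. Without glucose LINC02915 and ITGB2-AS1 were below the threshold of the choice in both cell types, and NEXN-AS1 was below it in EV cells. These RNAs reached the mean level through higher groups, so the size of their falls is not independent of the choice. LINC02915, at chr15:39250684-39254845, fell from 2.61 and 2.48 to 0.457 and 0.445 CPM in EV and from 2.54 and 3.01 to 0.815 and 0.621 CPM in KO cells, log2 changes of -2.44 (SE 0.17, adjusted p = 3.5e-07) and -1.92. LINC01119, at chr2:46816697-46859007, fell from 6.83 and 6.4 to 1.72 and 1.72 CPM in EV and from 6.63 and 6.12 to 1.78 and 1.35 CPM in KO cells, log2 changes of -1.93 (SE 0.13, adjusted p = 2.5e-07) and -2.02. Both are intergenic, and their deprived libraries lay below all regular ones. LINC00707, at chr10:6779549-6879450, was one of the more abundant RNAs and fell from 63.6 and 63.7 to 18.3 and 16.8 CPM in EV and from 58.5 and 59.2 to 15.2 and 14.8 CPM in KO cells. Its log2 changes were -1.86 (SE 0.048, adjusted p = 2.7e-10) and -1.97 (SE 0.048, adjusted p = 1.8e-10), with a narrow error at this depth. TRHDE-AS1, opposite the gene of a peptidase that degrades thyrotropin-releasing hormone, fell from 9.9 to 3.07 CPM in EV cells as group means (-1.68), and TRHDE changed by -1.51. NEXN-AS1, whose sense gene encodes the actin-binding protein nexilin, changed by -1.50 (SE 0.16, adjusted p = 6.8e-06), and NEXN by -1.77. ITGB2-AS1 changed by -1.59 in EV and -2.06 (SE 0.21, adjusted p = 7.4e-06) in KO cells, the largest fall there, from 2.19 and 1.98 to 0.474 and 0.494 CPM. Its sense gene ITGB2, a leukocyte integrin subunit, was itself at 1.63 CPM in EV cells in regular medium and changed by -1.54 and -0.85.

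The most abundant RNAs moved less than these. FGD5-AS1 stood at 171 and 169 CPM in EV cells in regular medium, 154 and 154 in KO cells, and without glucose at 141 and 144 CPM in EV and 140.0 and 139.6 CPM in KO cells. Regular EV libraries were the highest, and the log2 change under deprivation was -0.25 (SE 0.031, adjusted p = 2.6e-05) in EV and -0.14 in KO cells. LINC00673 rose, from 88 and 86.1 to 147 and 149 CPM in EV cells (0.76, SE 0.034, adjusted p = 1.2e-08), and was named for its level after its values were seen. RefSeq places it at chr17:72403322-72592804, inside the span that GENCODE gives LINC00511, chr17:72290091-72640472, which fell from 3.49 and 2.67 to 1.64 and 1.32 CPM (-1.04, SE 0.16, adjusted p = 0.00015). LINC00674 rose by 0.29 in EV cells, from 32.9 to 40.1 CPM, and by 0.12 (adjusted p = 0.03) in KO cells, a call lost without any of 4 libraries (adjusted p up to 0.15). LINC02067 changed by 0.18 in EV cells (lost without EV glucose-deprived a, adjusted p = 0.055) and 0.12 in KO cells (lost without any of 3 libraries, up to 0.086). PITPNA-AS1 did not pass the threshold in either cell type (-0.073 and -0.015, adjusted p = 0.37 and 0.86). Of the other RNAs high per kilobase, LINC01518 rose by 1.01 and SERTAD4-AS1 changed by -1.02 in EV cells, each called.

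A panel of 13 symbols of RNAs with known roles held 10 that were measured under those symbols. LINC00657 and LINC01021 of the panel are older symbols of NORAD and PURPL, which stand in the list of other named RNAs. OIP5-AS1 (Cyrano), which binds HuR and the microRNA miR-7, rose from 39.8 and 40.1 to 70 and 67.8 CPM in EV and from 39.7 and 38.2 to 64.6 and 62.8 CPM in KO cells, by 0.79 (SE 0.04, adjusted p = 3.3e-08) and 0.71. Its sense gene OIP5, a centromere protein, fell by 0.62 in EV cells, and the 2 genes share 3.71% of the exon bases of OIP5-AS1. ZEB1-AS1, which starts close to the promoter of the transcription factor gene ZEB1, rose by 0.83 in EV cells (from 4.65 to 8.29 CPM), EPB41L4A-AS1 by 0.64 and MAPKAPK5-AS1 by 0.28. CDKN2B-AS1 (ANRIL), of the INK4 tumor suppressor locus, rose by 0.38 (SE 0.11, adjusted p = 0.01) in EV cells, a call lost without EV regular a or EV glucose-deprived b (adjusted p up to 0.10). LINC00473, a cAMP-responsive RNA, changed by -0.78 (SE 0.092, adjusted p = 1.9e-05), from 6.32 and 5.59 to 3.38 and 3.51 CPM. GABPB1-AS1 changed by -0.17 (adjusted p = 0.047), a call lost without EV regular b or either EV glucose-deprived library (adjusted p up to 0.27), and LINC01116 by -0.0079 (adjusted p = 0.93). LINC00511 and SLC7A11-AS1 complete the panel.

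Antisense RNAs were set beside the gene their symbol names, for 229 pairs with both genes tested. Annotated exons of RNA and sense gene overlapped in 171 of these pairs, and in 35 the genes overlapped without sharing exons. Under deprivation in EV cells both genes were called in 118 pairs, 48 both higher, 29 both lower, 26 with the antisense RNA higher and the partner lower, and 15 the other way. In KO cells 113 pairs had both called, 44 both higher, 28 both lower, 23 and 18 in opposite directions. The partner was thus called for 118 of 150 called antisense RNAs in EV and 113 of 150 in KO cells. Among all tested genes 76.2% and 73.3% were called. Across the 229 pairs, which are genes and not replicates, Pearson's r between the log2 differences was 0.48 in EV and 0.43 in KO cells, and Spearman's rho 0.33 and 0.32. In the pairs with overlapping exons r was 0.46 in EV cells, and in the 35 pairs without shared exons it was 0.63, with 13 of 15 called pairs in the same direction against 57 of 91. The 12 pairs with starts within 1 kb and no overlap did not follow this: r was 0.083 in EV and -0.51 in KO cells, with 2 of 4 and 0 of 3 called pairs in the same direction. These values share libraries and depth and were not tested against each other. No other neighboring or random gene pairs were set beside them.

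**Figure D4:**
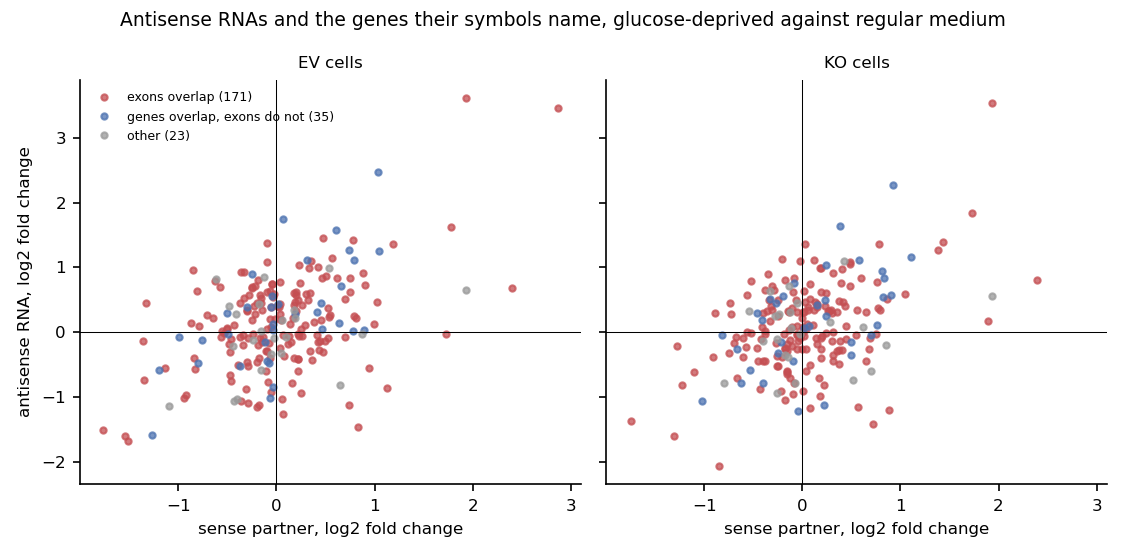
Log2 fold change under deprivation of each antisense RNA (y axis) against that of the gene its symbol names (x axis) in EV (left) and KO cells (right), 229 pairs, colored by whether annotated exons overlap (red, 171), only the genes overlap (blue, 35) or neither does (grey, 23, unplaced pairs included). SLCO4A1-AS1 and SLC7A11-AS1 lie at the upper right in EV cells, and points fall on both sides of 0 on each axis.

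Pairs that moved apart were named after their values were seen. SLC25A25-AS1 fell by 1.46 in EV cells, from 4.68 and 4.32 to 1.48 and 1.78 CPM, while SLC25A25, a mitochondrial ATP-Mg/phosphate carrier, rose by 0.84. CIRBP-AS1 fell from 4.46 and 4.47 to 2.52 and 2.37 CPM (-0.87, SE 0.11, adjusted p = 3.1e-05), while CIRBP, a cold-inducible RNA-binding protein, rose by 1.12. KDM4A-AS1 changed by -1.12 and the histone demethylase gene KDM4A by 0.74, both called. TFAP2A-AS1 rose by 0.95, from 1.94 and 2.09 to 4.65 and 3.31 CPM, while the transcription factor gene TFAP2A changed by -0.85. In all 4 pairs the directions were the same in KO cells, where the RNAs changed by -1.41, -1.20, -1.15 and 0.79. All 4 share exon bases with their partner, from 0.402% (CIRBP-AS1) to 25.9% (TFAP2A-AS1), and reads there cannot be told apart.

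In regular medium few of these RNAs were called different between KO and EV cells. In KO cells 4 of the 375 were higher and 12 lower than in EV cells, 1.07% and 3.2%, beside 3.87% and 3.38% of all tested genes. The median log2 difference was -0.048, beside -0.0033. Among the RNAs under 10 CPM 3.82% were called, near the 3.59% of all tested genes at that level. At 10 CPM or more the shares were 6.56% of the RNAs and 8.59% of all tested genes. The number called fell when any library of either regular group was left out. It also fell without EV glucose-deprived a or b, which enter this comparison only through the shared spread. Leaving out KO glucose-deprived a or b, which also enter only in this way, raised it. All these fits have 1 library fewer, and why the counts moved was not tested. A lost call does not by itself mark dependence on that library. Without KO regular b, EV glucose-deprived a or EV glucose-deprived b, 1 was called higher and 8 lower.

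SLC7A11-AS1, described above, had the largest difference. The other 3 called higher were HMGA2-AS1, ATP6V1B1-AS1 and LINC02709. ATP6V1B1-AS1 stood at 3.96 and 4.01 CPM in EV and 5.29 and 5.34 CPM in KO cells in regular medium, a log2 difference of 0.41 (SE 0.10, adjusted p = 0.037), and without glucose at 2.02 and 1.91 against 2.27 and 2.6 CPM (0.30, adjusted p = 0.06). KO libraries lay above EV libraries in both media, but the call in regular medium was lost when any of 6 single libraries was left out (adjusted p up to 0.22), as was that of HMGA2-AS1 (up to 0.31) and LINC02709 (up to 0.29). ATP6V1B1, a subunit of the proton pump of acidic compartments, was at 1.31 CPM and changed by -0.076 (adjusted p = 0.81).

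STARD4-AS1 was the call that held best among the RNAs lower in KO cells. It was at 12.6 and 12.5 CPM in EV and 8.37 and 8.2 CPM in KO cells in regular medium, and at 12.2 and 12.4 against 9.31 and 9.31 CPM without glucose. KO libraries were below EV libraries in both media, with log2 differences of -0.60 (SE 0.057, adjusted p = 0.00021) and -0.40 (SE 0.057, adjusted p = 0.0012), and the first stayed called without any single library (adjusted p at most 0.0052). STARD4, a sterol carrier induced when cholesterol is low, was lower by 0.40 and 0.24 in the same comparisons, but under deprivation in EV cells it rose by 1.73 where STARD4-AS1 changed by -0.029 (adjusted p = 0.65). The RNA shares 2.2% of its exon bases with STARD4.

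LINC01301 was at 3.07 and 2.92 CPM in EV and 2.07 and 1.86 CPM in KO cells (-0.60, SE 0.10, adjusted p = 0.0072), a call lost without EV regular a or b (adjusted p up to 0.087). PCGF3-AS1, opposite a Polycomb subunit gene, went from 6.74 and 6.7 to 5.31 and 4.25 CPM (-0.50, SE 0.11, adjusted p = 0.023), LINC00461 from 6.19 and 6.66 to 4.27 and 5.06 CPM (-0.46, adjusted p = 0.025) and GAS6-AS1 from 1.97 and 2.15 to 1.49 and 1.39 CPM (-0.51, adjusted p = 0.04). In all 4 the KO libraries lay below the EV libraries, and each call ended without EV regular a and without EV regular b (adjusted p up to 0.25). The remaining 7 called lower were EXOC3-AS1, FGD5-AS1, FOXD3-AS1, HERPUD2-AS1, LINC00673, LINC02475 and ZNF436-AS1, with log2 differences from -0.64 (FOXD3-AS1) to -0.14 (FGD5-AS1). The call of LINC02475 (-0.57, adjusted p = 0.049) ended under 6 of 7 other settings of the fit, and that of FGD5-AS1 without any of 5 libraries (adjusted p up to 0.23).

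Without glucose, KO cells had 9 of the 375 RNAs higher and 54 lower than EV cells, 2.4% and 14.4%, beside 9.04% and 10.6% of all tested genes. The median log2 difference was -0.098, beside -0.0057 over all tested genes. LINC RNAs counted 3 higher and 16 lower of 124, and antisense RNAs 6 and 38 of 251. The number lower moved widely with single libraries: it was 4 without EV glucose-deprived a, 7 without EV glucose-deprived b, 18 without KO glucose-deprived b, 32 without KO glucose-deprived a and 31 without either EV regular library, and the number higher was 15 without KO glucose-deprived a and 5 without EV glucose-deprived a, EV glucose-deprived b, KO glucose-deprived b or either EV regular library. More RNAs were called lower than higher in 7 of these 8 settings with 1 library left out, and with EV glucose-deprived a left out 4 were lower and 5 higher. Of the 12 RNAs called lower in regular medium 7 (58.3%) were among the 54 (13%), and none of the 4 called higher was among the 9 (0%). This overlap was not taken over all tested genes either.

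LINC01583 had the largest negative difference between KO and EV cells without glucose, 9.67 and 10.5 CPM against 17.4 and 16.6 CPM in EV cells, a log2 difference of -0.75 (SE 0.10, adjusted p = 0.00067) that stayed called without any single library (adjusted p at most 0.014). GAS6-AS1, opposite the gene of the growth arrest factor GAS6, was at 1.7 and 1.66 CPM against 3.01 and 2.63 CPM (-0.74, SE 0.13, adjusted p = 0.0036). KO and EV libraries did not overlap in either RNA, which the choice of named RNAs required. VCAN-AS1 was at 1.28 and 1.44 against 2.03 and 2.21 CPM (-0.64, SE 0.18, adjusted p = 0.034), and VCAN, the proteoglycan versican on whose exons 51.7% of its exon bases lie, was lower by 0.32. TNS2-AS1 (-0.58, SE 0.13, adjusted p = 0.014) and CAPN1-AS1 (-0.52, SE 0.13, adjusted p = 0.019) were named for tensin 2 and a calpain. The calls of VCAN-AS1, TNS2-AS1 and CAPN1-AS1 each ended without 3 or 4 single libraries (adjusted p up to 0.18).

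Of the 9 RNAs higher in KO cells without glucose, 5 are described here, and the others were IDI2-AS1, LINC02915, LINC01128 and MAGI2-AS3. LINC00641, 2236 bases from the splicing factor gene HNRNPC at chr14:21200079-21206900, was at 17.3 and 18.3 CPM against 11.7 and 12.8 CPM in EV cells (0.54, SE 0.061, adjusted p = 0.00034). ZIM2-AS1, at the imprinted ZIM2 locus, was at 3.01 and 3.08 against 2.09 and 1.98 CPM (0.58, SE 0.10, adjusted p = 0.0039) and EMC3-AS1, opposite a subunit gene of a membrane protein insertase, at 14.6 and 16 against 11.9 and 11.6 CPM (0.38, SE 0.06, adjusted p = 0.0023). In these 3 RNAs the KO libraries lay above the EV libraries, and the call held without any single library (adjusted p at most 0.039). All 3 had fallen without glucose in EV cells, by 0.77, 1.31 and 1.11 on the log2 scale, a comparison that shares the EV libraries without glucose. PARD6G-AS1 (0.55, SE 0.13, adjusted p = 0.017) and SERTAD4-AS1 (0.27, SE 0.075, adjusted p = 0.032) lost the call without 4 and 5 single libraries (adjusted p up to 0.096 and 0.21). PARD6G, a polarity protein gene, was higher by 0.33, while SERTAD4 was lower by 0.15.

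The interaction asks whether deprivation acted differently in KO and in EV cells. It was called positive for 2 of the 375 RNAs and negative for 7, 0.533% and 1.87%, beside 2.31% and 2.01% of all tested genes. The median was -0.051 against -0.0051. Among the RNAs under 10 CPM 2.23% were called, near the 2.14% of all tested genes at that level. At 10 CPM or more the shares were 3.28% and 5.11%. Here too the count changed with single libraries left out. It fell without any EV library, KO regular a or KO glucose-deprived b, and rose without KO regular b or KO glucose-deprived a. All these fits have 1 library fewer, and why the count moved was not tested.

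SLC7A11-AS1 had the largest interaction, -2.06 (SE 0.22, adjusted p = 0.00071), since its rise without glucose was 3.46 in EV and 1.40 in KO cells. It was the only one of the 9 whose call held without any single library (adjusted p at most 0.0083), and SLC7A11 had an interaction of -1.44 (SE 0.058, adjusted p = 7.4e-07). HMGA2-AS1, opposite the gene of a chromatin protein of growing cells, was at 1.99 and 2.17 CPM in EV and 2.81 and 2.85 CPM in KO cells in regular medium. Without glucose it was at 2.58 and 2.7 against 1.94 and 2.24 CPM, up by 0.34 in EV and down by 0.43 in KO cells, the one RNA of the 375 called in opposite directions (the rise in EV cells lost without EV regular a or EV glucose-deprived b, adjusted p up to 0.12). Its interaction was -0.77 (SE 0.16, adjusted p = 0.03), lost without any of 6 single libraries (adjusted p up to 0.15), and HMGA2 fell in both cell types (-0.30 and -0.40).

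LINC01583 (-0.76, SE 0.14, adjusted p = 0.013) and LINC02709 (-0.60, SE 0.13, adjusted p = 0.036) rose less in KO cells. LINC02709, at chr11:9754770-9759533 and 1779 bases from SWAP70, was at 2.2 and 2.39 CPM in EV and 2.87 and 3.09 CPM in KO cells in regular medium and at 8.7 and 8.33 against 7.73 and 6.81 CPM without glucose. Its deprived libraries all lay above its regular ones, and KO libraries were above EV libraries in regular medium and below them without glucose. RGMB-AS1, opposite a bone morphogenetic protein co-receptor gene, rose in EV cells by 0.50 (SE 0.079, adjusted p = 0.00019) and in KO cells did not pass the threshold (-0.027, adjusted p = 0.76), with an interaction of -0.52 (SE 0.11, adjusted p = 0.03). CCDC183-AS1 (-0.42, adjusted p = 0.044) and PAX8-AS1 (-0.21, adjusted p = 0.038) were the other 2 negative ones. LINC00641 (0.49, SE 0.087, adjusted p = 0.012) was positive, falling from 20.3 and 21.3 to 11.7 and 12.8 CPM in EV cells but from 21 and 22.1 to 17.3 and 18.3 CPM in KO cells. IDI2-AS1, at 1.44 and 1.28 CPM in EV and 1.05 and 0.981 CPM in KO cells in regular medium and 0.65 and 0.717 against 1.21 and 1.28 CPM without glucose, had the other positive interaction, 1.26 (SE 0.23, adjusted p = 0.014). It lies opposite annotated exons over 57.7% of its exon bases. In EV cells without glucose IDI2-AS1 was below the threshold of the choice, so the size of its interaction is not independent of the choice. The same holds for SLC7A11-AS1, which was below it in EV cells in regular medium. Apart from SLC7A11-AS1, each of these interactions was lost without at least 2 single libraries (adjusted p up to 0.19).

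**Figure D5:**
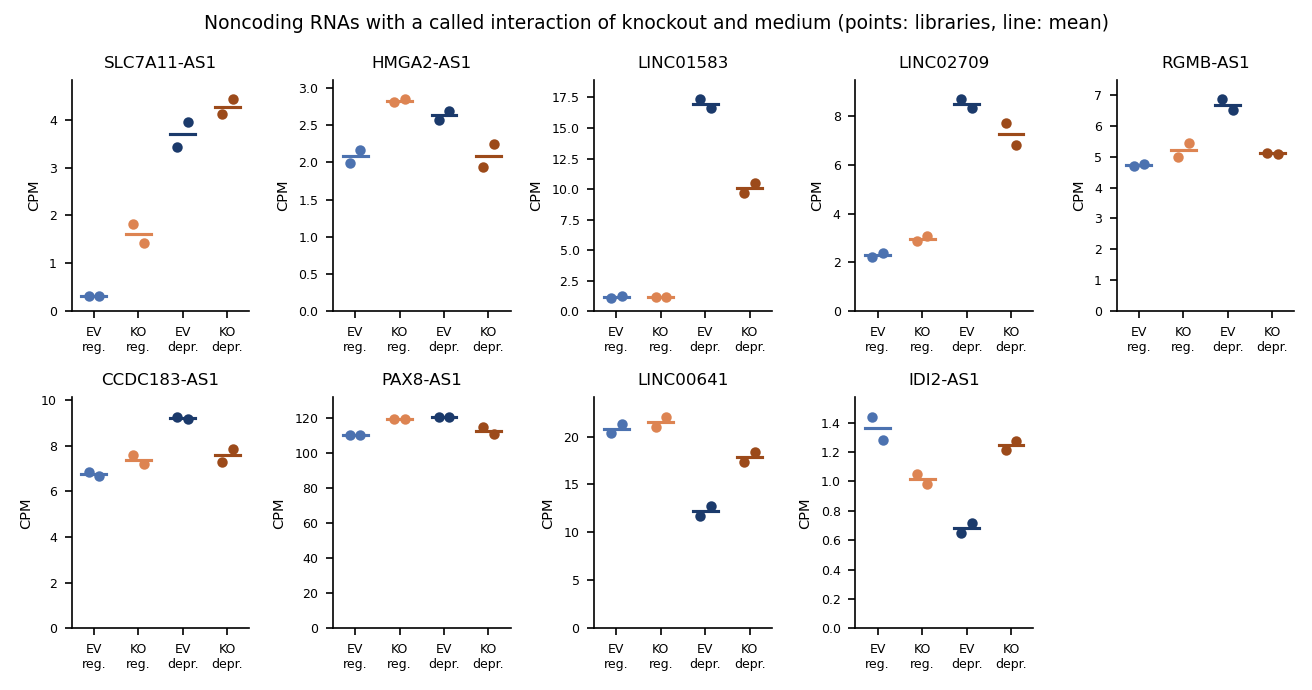
CPM (y axis, linear from 0) in each library (points) and the group mean (line) for the 9 RNAs with a called interaction, ordered from the most negative to the most positive. SLC7A11-AS1 is lowest in EV cells in regular medium, and LINC00641 and IDI2-AS1 are lowest in EV cells without glucose.

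Other named long noncoding RNAs, a list of 46 outside these symbols, had 31 tested members. Without glucose 14 rose and 11 fell in EV cells and 13 and 10 in KO cells, with medians of -0.068 and 0.11. That is 45.2% and 35.5% in EV and 41.9% and 32.3% in KO cells, beside the 37.5% and 38.7%, and 36.5% and 36.8%, of all tested genes. NEAT1, the scaffold of paraspeckles, rose from 154 and 158 to 419.9 and 411 CPM in EV (1.41, SE 0.041, adjusted p = 6.0e-10) and from 144 and 147 to 318 and 344 CPM in KO cells (1.18), and was lower in KO than in EV cells without glucose (-0.33, SE 0.041, adjusted p = 0.00058). LUCAT1, an NRF2-regulated RNA, was higher in KO cells in regular medium, 3.37 and 3.41 against 1.73 and 1.42 CPM (1.10, SE 0.13, adjusted p = 0.00074). LINC-PINT rose by 1.48 and 1.30 without glucose, DANCR changed by -0.68 and -0.74, and MIR100HG by 0.51 and 0.91, with the list's only called interaction (0.40, SE 0.074, adjusted p = 0.017). For KO against EV the list had 4 higher and 2 lower in regular medium (12.9% and 6.45%) and 2 and 2 without glucose (6.45% each), beside the 3.87% and 3.38%, and 9.04% and 10.6%, of all tested genes.

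Genes of the nuclear RNA exosome and its adaptors, which degrade many such RNAs, had 33 tested members. The list held 37 symbols, among them older names of genes also listed under their present name, such as ARS2 for SRRT. In EV cells 9 rose and 20 fell without glucose and in KO cells 9 and 16, with medians of -0.22 and -0.15, beside -0.011 and -0.0015 over all tested genes. That is 27.3% and 60.6% in EV and 27.3% and 48.5% in KO cells, where 37.5% and 38.7%, and 36.5% and 36.8%, of all tested genes rose and fell. SRRT (ARS2), which links capped RNA to the exosome, fell from 249 and 254 to 114 and 114 CPM in EV cells (-1.14, SE 0.031, adjusted p = 3.5e-10) and by 1.08 in KO cells. EXOSC3, a core subunit, changed by -0.75 and -0.58, WDR82 by -0.57 and -0.60, while ZCCHC7 rose by 1.00 and 0.94. For KO against EV limma called 0 of the 33 in regular medium (6 at an unadjusted p under 0.05), and 3 were higher and 1 lower without glucose, MPHOSPH6 (0.29), ZC3H18 (0.15), EXOSC3 (0.15) and TENT4A (-0.15). Whether these levels bear on the noncoding RNAs was not tested.

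Of the 375 RNAs 72 were called in none of the 5 comparisons and 303 (80.8%) in at least 1, beside 85.4% of all tested genes. By group mean 175 were highest in EV cells without glucose, 96 in EV cells in regular medium, 66 in KO cells in regular medium and 38 in KO cells without glucose. The median ratio of the highest to the lowest group mean was 1.55, and 94 RNAs differed at least 2-fold between their highest and lowest group. The counts by highest group and these ratios were not taken over all tested genes, so they do not show a trait particular to these RNAs.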

How the data were processed

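Total RNA was measured in 8 libraries prepared by SMART-Seq cDNA synthesis with Nextera XT tagging, which records no strand, per the labels' protocols. The deposited table gives log2 CPM per Entrez gene, and HISAT2, edgeR and GRCh38 are named in the submitters' processing notes without versions. The counting tool, annotation and filters are not given in the sources used here. CPM printed here is 2 to the power of the deposited value less the offset of 0.023 CPM shared by all columns, and whole read numbers follow from the step of each library. Columns carry groups but no replicate numbers. The 13057 genes averaging 0 or more on this scale entered limma 3.58.1 (R 4.3.3), as 1 model of 4 groups with a variance trend, 4 residual and 6.29 prior degrees of freedom, and two-sided p-values adjusted by Benjamini-Hochberg over all of them. The steps were tested on simulated data. RNAs were placed by GENCODE release 29, 302 by symbol and 55 by Entrez ID. The RNAs, lists and tests were chosen with earlier results of these data known. Named were, per comparison, up to 5 called RNAs each way by size with no overlap between the libraries and 2 CPM or more in the higher group, the 8 highest per kilobase, a panel of 13, their partners or neighbors, up to 4 called genes by adjusted p of each list and the 3 symbols nearest the threshold on each side. Some items that this rule names are not reported here. Alternatives were another variance model, pseudocounts, filters, scaling, 2-group fits and each library left out.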

Additional observations from a re-analysis of the deposited data

Results flagged for a closer look

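For 9 RNAs the change under glucose deprivation differed between KO and EV cells by the interaction term of limma, fitted over all tested genes. The differences (KO minus EV, log2 scale) were -2.06 for SLC7A11-AS1, -0.77 for HMGA2-AS1, -0.76 for LINC01583, -0.60 for LINC02709, -0.52 for RGMB-AS1, -0.42 for CCDC183-AS1, -0.21 for PAX8-AS1, 0.49 for LINC00641 and 1.26 for IDI2-AS1. IDI2-AS1 was not above 2 CPM in any group, and the lowest read number of SLC7A11-AS1 in a library was 24.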

How the results depend on the processing

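No paired analysis was possible because the columns carry no replicate numbers. With 1 library left out in turn, the numbers of RNAs called higher and lower ranged from 1 to 5 and from 1 to 14 for KO against EV in regular medium, from 5 to 15 and from 4 to 58 without glucose, from 139 to 164 and from 86 to 100 for deprivation in EV cells, from 127 to 145 and from 89 to 101 in KO cells, and from 0 to 11 and from 1 to 9 for the interaction. Where this left 1 library in a group, it was assumed to vary like the other groups. With a filter at a mean log2 CPM of 1, 107 RNAs were called higher under deprivation in EV and 95 in KO cells, since fewer RNAs were tested. With only the 2 groups compared, 2 were called higher in KO cells in regular medium, with fewer libraries in the fit. Of 120 calls of named RNAs, 78 held with each library left out and 102 under every other setting tried, and none changed direction. By comparison, 37 of 42 and 31 of 37 calls under deprivation in EV and KO cells held with each library left out, 2 of 11 and 7 of 21 for KO against EV in regular medium and without glucose, and 1 of 9 for the interaction. On a log2(CPM + 1) scale 26 of the 120 differences were smaller by more than 1.5 times, which that scale does to low levels by construction. The interaction of SLC7A11-AS1 was then -0.82 and its rise in EV cells 1.83. Median-of-ratios scaling shifted all genes by at most 0.0092 on the log2 scale. With sense partners taken by annotation, 81 and 74 pairs were called in the same direction in EV and KO cells, beside 77 and 72 by symbol. The rarest RNAs, with as few as 24 reads in a library, and the 2 libraries a group limit the precision.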
